A study of Mus musculus with 20 samples.

Results

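The genes described here carry out mitosis or guard it at the spindle checkpoint. They form a list of 47 genes matched by the gene symbol of the array. Of these, 46 were measured among 19504 named genes, each by 1 row of the array, and Foxm1, a transcription factor of the list, is not analysed here. The members were taken in 12 groups by role, from cyclins with CDK1 to condensin.

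Expression was measured on 20 microarrays of melanomas grown in mice of 2 genotypes. In the genotype called B (Tyr::CreERT2;BrafCA/CA), a Cre recombinase that tamoxifen activates and the tyrosinase promoter restricts to melanocytes switched on oncogenic BRAF. The genotype called B;p38α had these same alleles together with p38αlox/lox, so that Cre also removed Mapk14, the gene of the stress kinase p38α, from melanocytes, while all other cells of the tumor kept it. All animals of both genotypes received 4-hydroxytamoxifen on the skin (5 mg/ml) on postnatal days 2.5 and 3.5 and 1 UVB dose of 6.24 kJ/m2, and every tumor was taken at endpoint size, with no age at that time in the labels. The arrays hold 5 B and 3 B;p38α complete tumors. Leukocytes carry the surface protein CD45, and a magnetic selection for it gave a bound population (CD45+, with 3 samples of each genotype) and an unbound one of tumor and stromal cells (CD45-, also 3 of each). The samples are called biological replicates, without a statement that each came from its own animal or that the sorted populations came from the same tumors, and p-values therefore rest on a spread between samples that may be partly technical.

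Mitosis is run by a small set of kinases and by the destruction of their regulators. CDK1 bound to a cyclin starts it, the Aurora and Polo kinases build the spindle, and the spindle checkpoint (TTK, BUB1, BUB1B, MAD2L1) holds the cell until every chromosome is attached. The anaphase-promoting complex with CDC20 then destroys cyclin B and securin, the product of Pttg1, which frees separase (Espl1) to part the sister chromatids. Because these genes are transcribed mainly between S phase and mitosis, their RNA in a tissue is widely read as the share of dividing cells. In bulk samples such as these, fewer dividing cells and less RNA per dividing cell cannot be told apart.

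Array medians lay between 6.75 and 7.02 on the log2 scale, and the interquartile range of all genes on an array was narrowest for B CD45- replicate 1, at 2.95, with 3.41 for B CD45+ replicate 2, against 3.62 to 3.89 on the other arrays. In complete tumors Mapk14 itself read 10.06 ± 0.11 (SD, n = 5) in B and 9.79 ± 0.20 (n = 3) in B;p38α, lower by a difference of -0.27 (SE 0.15, limma adjusted p = 0.807), and differed by -0.18 and -0.16 in the CD45+ and CD45- populations (limma adjusted p = 0.672 and 0.803). Whether its probes lie in the deleted part of the gene is unknown here, so these values check no label. All 5 leukocyte markers passed the test as higher in CD45+ than in CD45- populations, by 2.40 to 3.04, and so did all 4 endothelial markers, by 1.18 to 1.79. The CD45+ arrays also carried high fibroblast markers, with a mean of 4 genes between 11.70 and 12.30, against 12.29 to 12.99 in CD45-. The mean of 6 pigment genes of melanocytes lay between 4.96 and 6.67, under the array median, on every array except B complete replicate 1, where it was 7.88.

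The promoters of mitotic genes are known for 2 short elements, the cell cycle genes homology region, bound by the MuvB complexes (DREAM, B-MYB and FOXM1), and the CCAAT box, bound by NF-Y. The promoter windows of 4 members that held the letters of both elements are shown: Ccnb2 (a cyclin partner of CDK1), Plk1, Top2a and Prc1. Each runs 5′ to 3′ from 250 bases before to 50 bases after the transcript start of the RefSeq annotation of GRCm38.p6. Capitals mark TTTGAA on either strand and TTTAAA, the letters of the homology region, and CCAAT on either strand.
Ccnb2, chr9:70421505-70421804, minus strand: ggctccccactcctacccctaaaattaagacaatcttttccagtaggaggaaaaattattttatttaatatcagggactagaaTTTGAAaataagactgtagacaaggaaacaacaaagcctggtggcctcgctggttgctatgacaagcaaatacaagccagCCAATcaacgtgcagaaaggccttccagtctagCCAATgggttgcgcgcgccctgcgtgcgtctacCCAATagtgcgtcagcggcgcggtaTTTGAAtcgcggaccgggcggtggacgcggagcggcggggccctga
Plk1, chr7:122159185-122159484, plus strand: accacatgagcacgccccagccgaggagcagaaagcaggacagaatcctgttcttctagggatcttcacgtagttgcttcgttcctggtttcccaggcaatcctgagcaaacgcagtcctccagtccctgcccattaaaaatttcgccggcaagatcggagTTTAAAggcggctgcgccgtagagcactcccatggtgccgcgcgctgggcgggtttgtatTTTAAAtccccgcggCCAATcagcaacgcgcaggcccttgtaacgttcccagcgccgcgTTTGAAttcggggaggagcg
Top2a, chr11:99024140-99024439, minus strand: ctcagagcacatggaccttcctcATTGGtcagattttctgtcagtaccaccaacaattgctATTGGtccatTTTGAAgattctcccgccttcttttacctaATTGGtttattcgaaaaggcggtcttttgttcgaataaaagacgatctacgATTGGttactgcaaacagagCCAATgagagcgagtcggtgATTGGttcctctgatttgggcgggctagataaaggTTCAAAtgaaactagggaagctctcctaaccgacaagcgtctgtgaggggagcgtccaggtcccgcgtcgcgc
Prc1, chr7:80294201-80294500, plus strand: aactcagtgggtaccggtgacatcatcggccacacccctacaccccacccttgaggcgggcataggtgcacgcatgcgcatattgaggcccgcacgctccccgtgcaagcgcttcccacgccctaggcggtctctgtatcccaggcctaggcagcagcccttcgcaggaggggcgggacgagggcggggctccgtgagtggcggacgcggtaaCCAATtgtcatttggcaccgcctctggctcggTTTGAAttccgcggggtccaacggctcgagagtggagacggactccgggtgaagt

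Promoter windows were found for 38 of the 46 measured members, and the other 8 (Ccna2, Aurkb, Incenp, Spc24, Kif20a, Tpx2, Dlgap5 and Smc4) are named only. TTTGAA stood on either strand in 28 of 38 windows (73.7%), against 18.1% of 27025 windows of all genes and 15.8% of 15690 windows of genes on the array. CCAAT stood on either strand in 28 windows as well (73.7%, against 37.9% of all windows). Both kinds of element, counting TTTAAA with TTTGAA, occurred together in 26 windows (68.4%, against 10.9%), while TTTAAA, counted separately, stood in 7 windows (18.4%, against 13.2%). TTTGAA lay within 50 bases of the start in 25 windows (65.8%, against 4.92%). In Ccnb2 it began 4 bases after the start, in Prc1 5 bases before it, in Plk1 30 bases after it and in Top2a 23 bases before it on the opposite strand, and Top2a also held 6 CCAAT boxes. Neither kind of element stood in 6 windows, those of Mybl2, Melk, Mad2l1, Nuf2, Pttg1 and Ncaph. The window listed for a gene need not lie at its 5′ end: in 6 of 38 members its start was over 100 bases inside the annotated gene, 1482 bases for Pttg1 and 308 for Mybl2 among the empty windows, and 3852 for Kif2c, 514 for Ncapd2, 375 for Ect2 and 316 for Aurka among the others. For these genes the 5′ end itself was not searched. In 2 members the letters of elements overlapped. A match describes letters in this window and does not show binding.

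**Figure D1:**
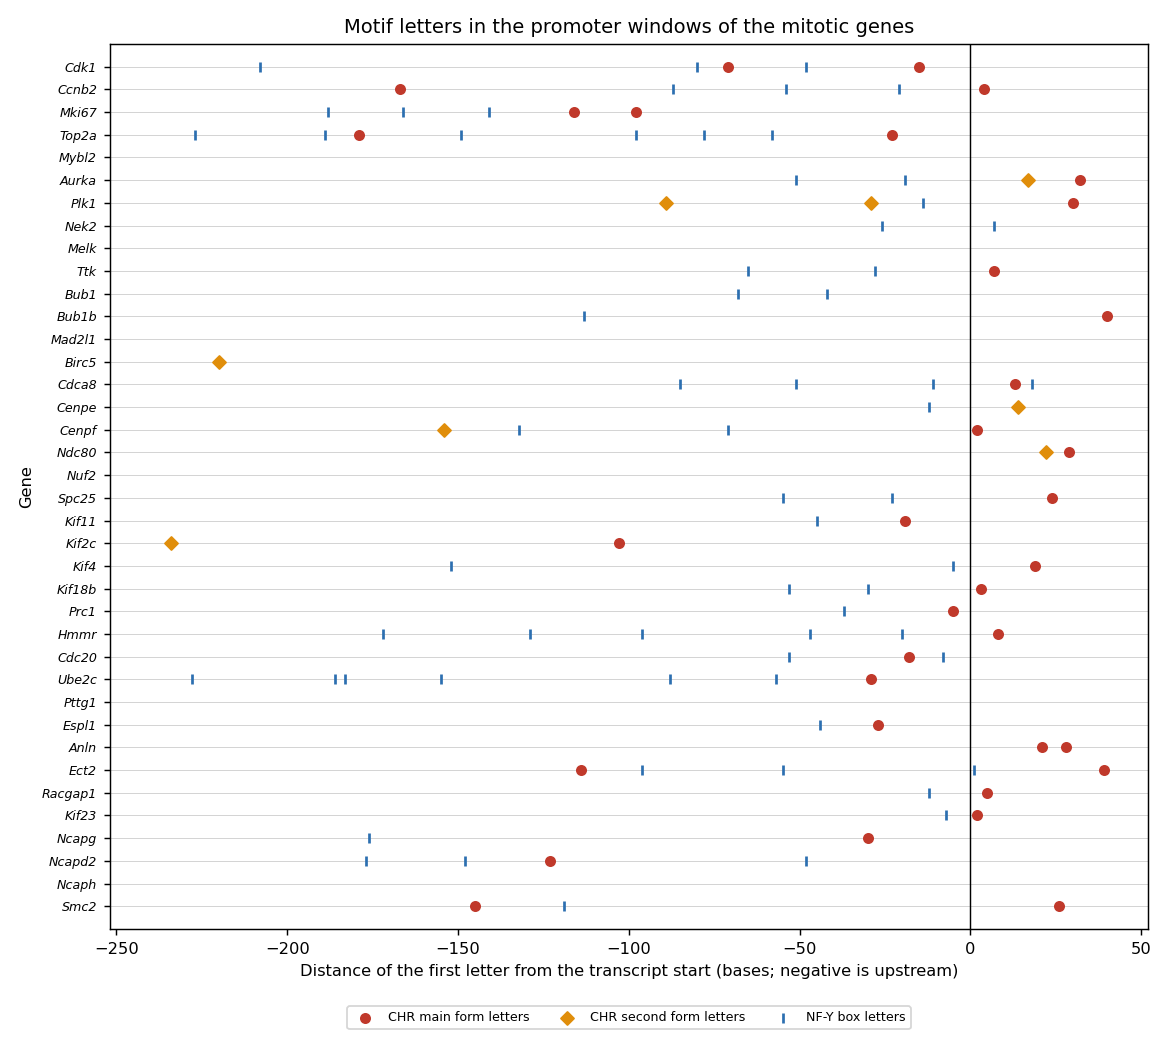
Positions of the searched elements in the promoter windows of 38 members, where the horizontal axis gives the distance of the first letter from the transcript start in bases (negative is upstream), and rows are genes in order of role. Circles and diamonds mark the 2 forms of the cell cycle genes homology region and ticks the NF-Y box, and most circles lie within 50 bases of the start, and 6 rows are empty.

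Across arrays the members moved almost as a single unit. After each group's mean was subtracted, the value of a member correlated with the mean of the other 45 members at a median r of 0.94 over 20 arrays, with 43 of 46 above 0.8, whereas the median over all other genes was 0.03 and 1.28% of them (249 genes) lay above 0.8. The arrays share their preparation and range, so these correlations are given as a description. Without the 2 arrays farthest from their group (B;p38α complete replicate 1 and B;p38α CD45- replicate 1) the median was 0.92, and 44 of 46 lay above 0.8. Top2a, the topoisomerase that untangles sister chromatids, and the chromokinesin Kif4 followed the set most closely, both with r of 0.98. The loosest were Pttg1 with 0.41, Espl1 with 0.70 and the condensin subunit Ncapd2 with 0.80.

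The members also differed more between samples of 1 group than most genes did. Their median standard deviation within groups was 0.65 on the log2 scale, against 0.33 for all genes. The median value of the 46 members was 8.34, 7.65, 8.01, 7.28 and 8.11 in B complete tumors (7.88 ± 0.42, SD, n = 5) and 6.96, 8.57 and 8.11 in B;p38α complete tumors (7.88 ± 0.83, n = 3). In CD45+ populations it was 8.07, 6.78 and 7.15 in B (7.33 ± 0.66, n = 3) and 8.27, 8.28 and 7.49 in B;p38α (8.01 ± 0.45, n = 3). In CD45- populations it was 7.01, 8.51 and 7.60 in B (7.71 ± 0.76, n = 3) and 8.64, 7.24 and 7.64 in B;p38α (7.84 ± 0.72, n = 3). The genotypes overlapped in all 3 compartments.

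The same sample was on top, or at the bottom, for nearly every member. B CD45- replicate 2 was the highest of its group for 45 of 46 members (against 34.0% of all genes), B;p38α CD45- replicate 1 for 45 (39.2%) and B;p38α complete replicate 2 for 42 (34.2%). B;p38α complete replicate 1 was the lowest of its group for 44 (34.9% of all genes), and B;p38α CD45+ replicate 3 for 45 (38.7%). The arrays of narrowest range were both at the bottom of their groups: B CD45- replicate 1 was lowest for 40 members (47.1% of all genes) and B CD45+ replicate 2 for 38 (38.9%). The part of the narrow range in these low values was not tested.

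**Figure D2:**
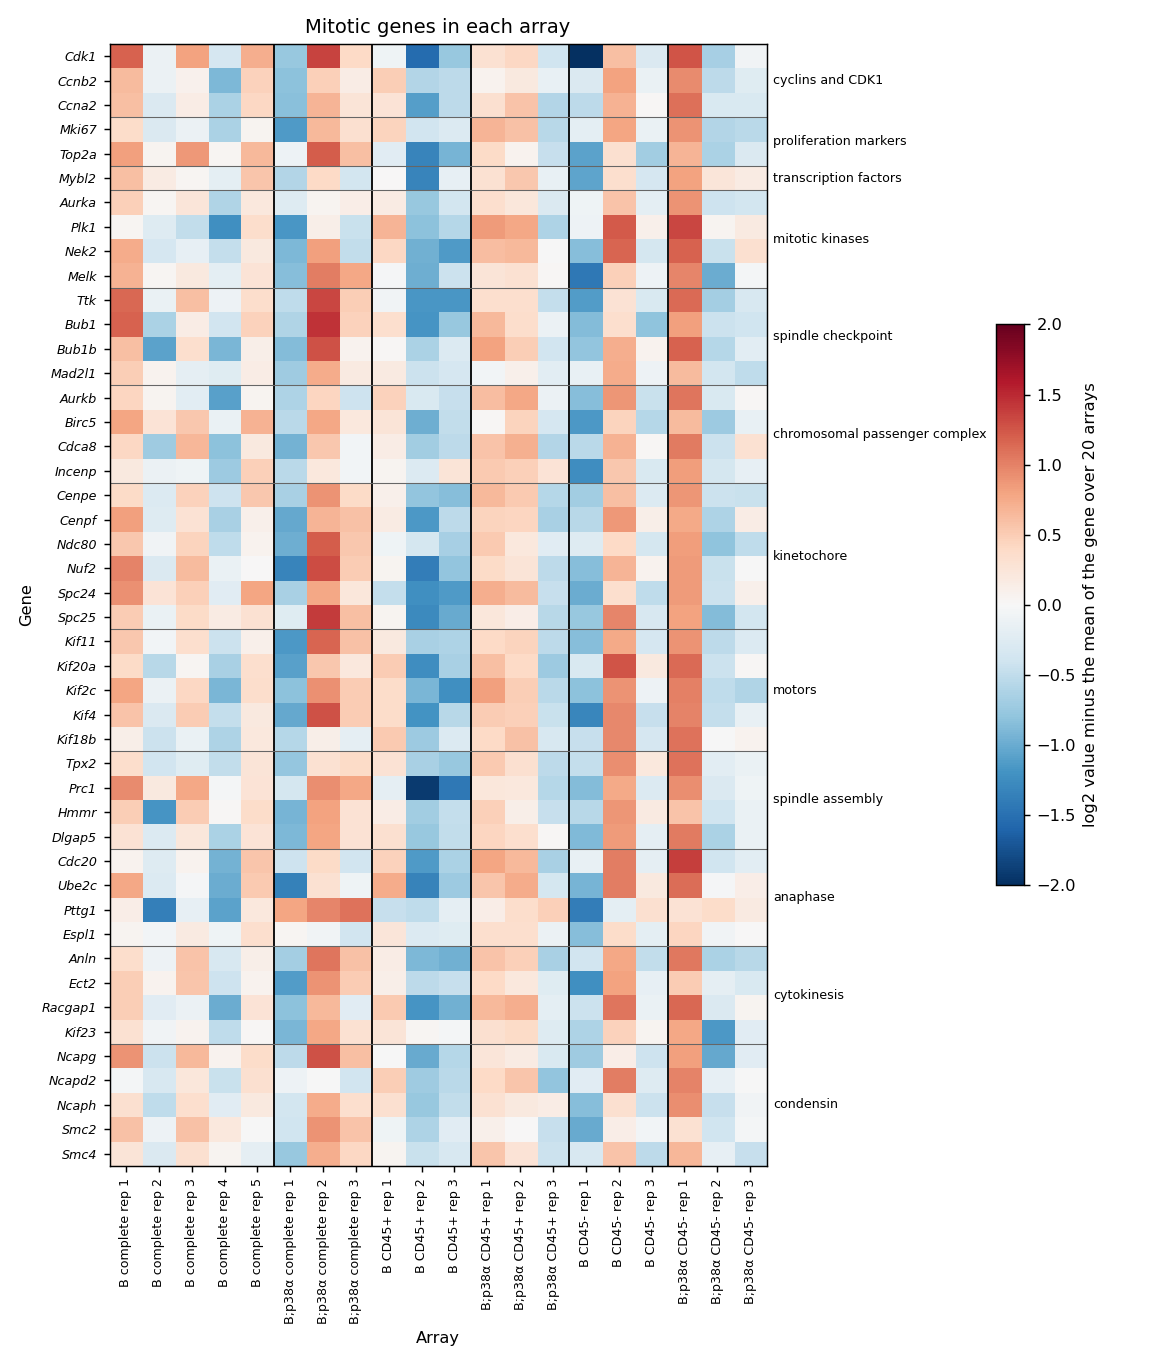
Value of each of the 46 members on each of the 20 arrays, as the log2 value minus the gene's mean over all arrays, where rows are grouped by role, columns by group, and red is above and blue below the mean. Columns of 1 colour run through nearly all rows, and Pttg1 departs from its columns in B;p38α complete replicate 1.

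**Figure D3:**
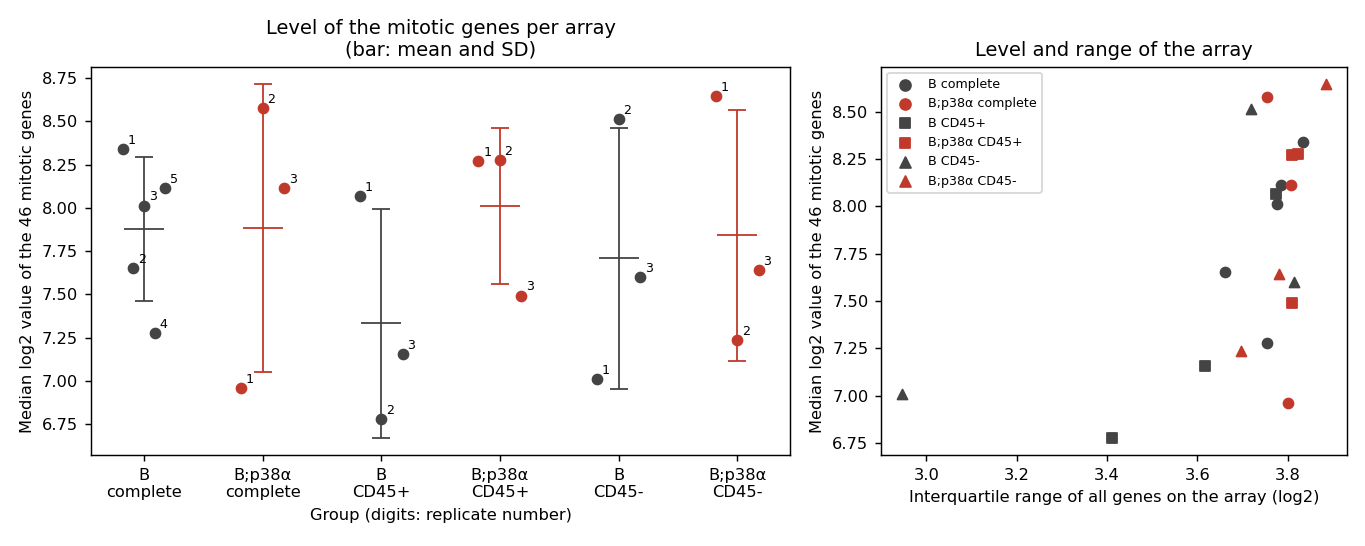
Median log2 value of the 46 members per array (left; points are samples with their replicate number, bars are the mean and SD of the group) and the same value against the interquartile range of all genes on that array (right). B;p38α complete tumors span 6.96 to 8.57, and the 2 arrays of narrowest range, at 2.95 and 3.41, lie among the lowest.

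Markers of cell types moved with this level in some groups. In B;p38α CD45- populations, replicate 1, with the highest member level, had a mean of 6.28 over 5 leukocyte genes and 6.01 over 6 macrophage genes, against 8.26 and 8.52, and 8.12 and 9.41, in replicates 2 and 3. In B;p38α CD45+ populations, replicate 3, with the lowest member level, had the highest T cell mean, 7.58 against 6.76 and 6.74. Over all arrays the correlation with the mean of the members, within groups, was -0.58 at the median of 6 T cell genes, -0.39 over 5 leukocyte genes, -0.28 over 6 macrophage genes, -0.19 over 6 pigment genes and 0.31 over 3 neural crest genes. Those 3 genes ran from -0.09 (S100b) to 0.55 (Ngfr). The median was -0.31 for fibroblast, -0.16 for keratinocyte, -0.12 for B cell and -0.06 for endothelial genes. For Y-linked and skeletal muscle genes it was 0.03 and 0.21. The part of cell composition in the level of the mitotic genes was not tested.

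Other genes of the cell cycle were set beside the members in 6 lists with 91 measured genes. The 33 further mitotic genes followed the set with a median r of 0.91, 29 of them above 0.8, led by the kinase Pbk (0.98), the kinesin Kif22 (0.97) and Depdc1a (0.97). The 23 genes of DNA replication followed less closely (median 0.81, 12 above 0.8). The 13 genes listed for the anaphase-promoting complex, core subunits with the coactivator Fzr1, persist outside mitosis. They had a median of 0.43 with 0 above 0.8. The 11 genes of the MuvB and DREAM complexes had a median of 0.41, with Rbbp4 (0.85) and Tfdp1 (0.82) at the top. The 4 genes of G1 cyclins and kinases had a median of -0.26. Among 7 inhibitors of cyclin-dependent kinases, Cdkn2c (0.84), Cdkn2d (0.81) and Cdkn1b (0.65) ran with the members. Cdkn2a (-0.79), Cdkn1a (-0.59), Cdkn1c (-0.44) and Cdkn2b (-0.41) ran against them.

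In complete tumors the members were spread around a genotype difference of 0, and 0 of 46 members passed the test at a limma adjusted p under 0.05, where 0% of all genes did. At an unadjusted p under 0.05, 1 member was counted (2.17%), against 6.61% of all genes. The median difference, B;p38α minus B, was 0.02 over the members and -0.01 over all genes, with 25 of 46 above 0, against 48.2% of all genes. That median was -0.28 without B;p38α complete replicate 2 and 0.47 without B;p38α complete replicate 1, so 1 sample set its sign.

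Mki67, the proliferation antigen Ki-67, read 10.70, 10.05, 10.22, 9.70 and 10.38 in B and 9.20, 10.98 and 10.64 in B;p38α complete tumors. The groups overlapped, with the lowest and the highest value both in B;p38α, and differed by 0.07 (SE 0.38, limma adjusted p = 0.986). Cdk1, the kinase that drives entry into mitosis, read 9.08, 7.77, 8.69, 7.56 and 8.61 in B and 7.13, 9.25 and 8.28 in B;p38α (difference -0.12, SE 0.48, limma adjusted p = 0.98). Ccnb2 read 9.84, 9.08, 9.30, 8.31 and 9.66 in B and 8.38, 9.68 and 9.36 in B;p38α (-0.10, SE 0.38, limma adjusted p = 0.98). In all 3 genes B;p38α replicate 1 stood near or below the lowest B sample and replicate 2 near or above the highest. Plk1, the Polo kinase of spindle assembly, read 8.36, 8.07, 7.82, 7.10 and 8.68 against 7.16, 8.44 and 7.87 (-0.18, SE 0.37). Bub1, a kinase of the checkpoint, read 8.29, 6.48, 7.26, 6.73 and 7.57 against 6.51, 8.55 and 7.58 (0.28, SE 0.49), and B replicates 1 and 2 alone differed by more than this. Aurkb, the kinase of the chromosomal passenger complex, read 8.48, 8.11, 7.83, 6.97 and 8.10 against 7.42, 8.47 and 7.63 (-0.05, SE 0.35). Top2a read 9.58, 8.81, 9.62, 8.79 and 9.40 against 8.66, 9.96 and 9.35 (0.08, SE 0.31), and again the groups overlapped.

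By role, the 4 members of the chromosomal passenger complex lay between -0.28 (Birc5, survivin) and -0.05 in complete tumors. The 3 genes of the group of cyclins and CDK1 lay between -0.12 and -0.01. The 4 checkpoint genes lay between 0.02 and 0.35 (Bub1b), and the 6 kinetochore genes, which tie chromosomes to the spindle, between -0.33 (Spc24) and 0.35 (Spc25), 2 subunits of the same NDC80 complex. Mybl2, the gene of B-MYB, read 7.11, 6.67, 6.56, 6.32 and 7.06 in B and 5.92, 6.92 and 6.15 in B;p38α complete tumors (-0.41, SE 0.27, limma adjusted p = 0.838). Ube2c, the ubiquitin enzyme of the anaphase-promoting complex, read 8.79, 7.75, 8.001, 7.02 and 8.54 in B and 6.67, 8.33 and 7.93 in B;p38α (-0.38, SE 0.45, limma adjusted p = 0.917). Spc25 read 7.87, 7.23, 7.75, 7.52 and 7.67 in B and 7.13, 8.77 and 7.97 in B;p38α (0.35, SE 0.32, limma adjusted p = 0.884). The groups overlapped in all 3 genes, and B;p38α replicate 1 was the lowest of the 8 tumors in each.

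**Figure D4:**
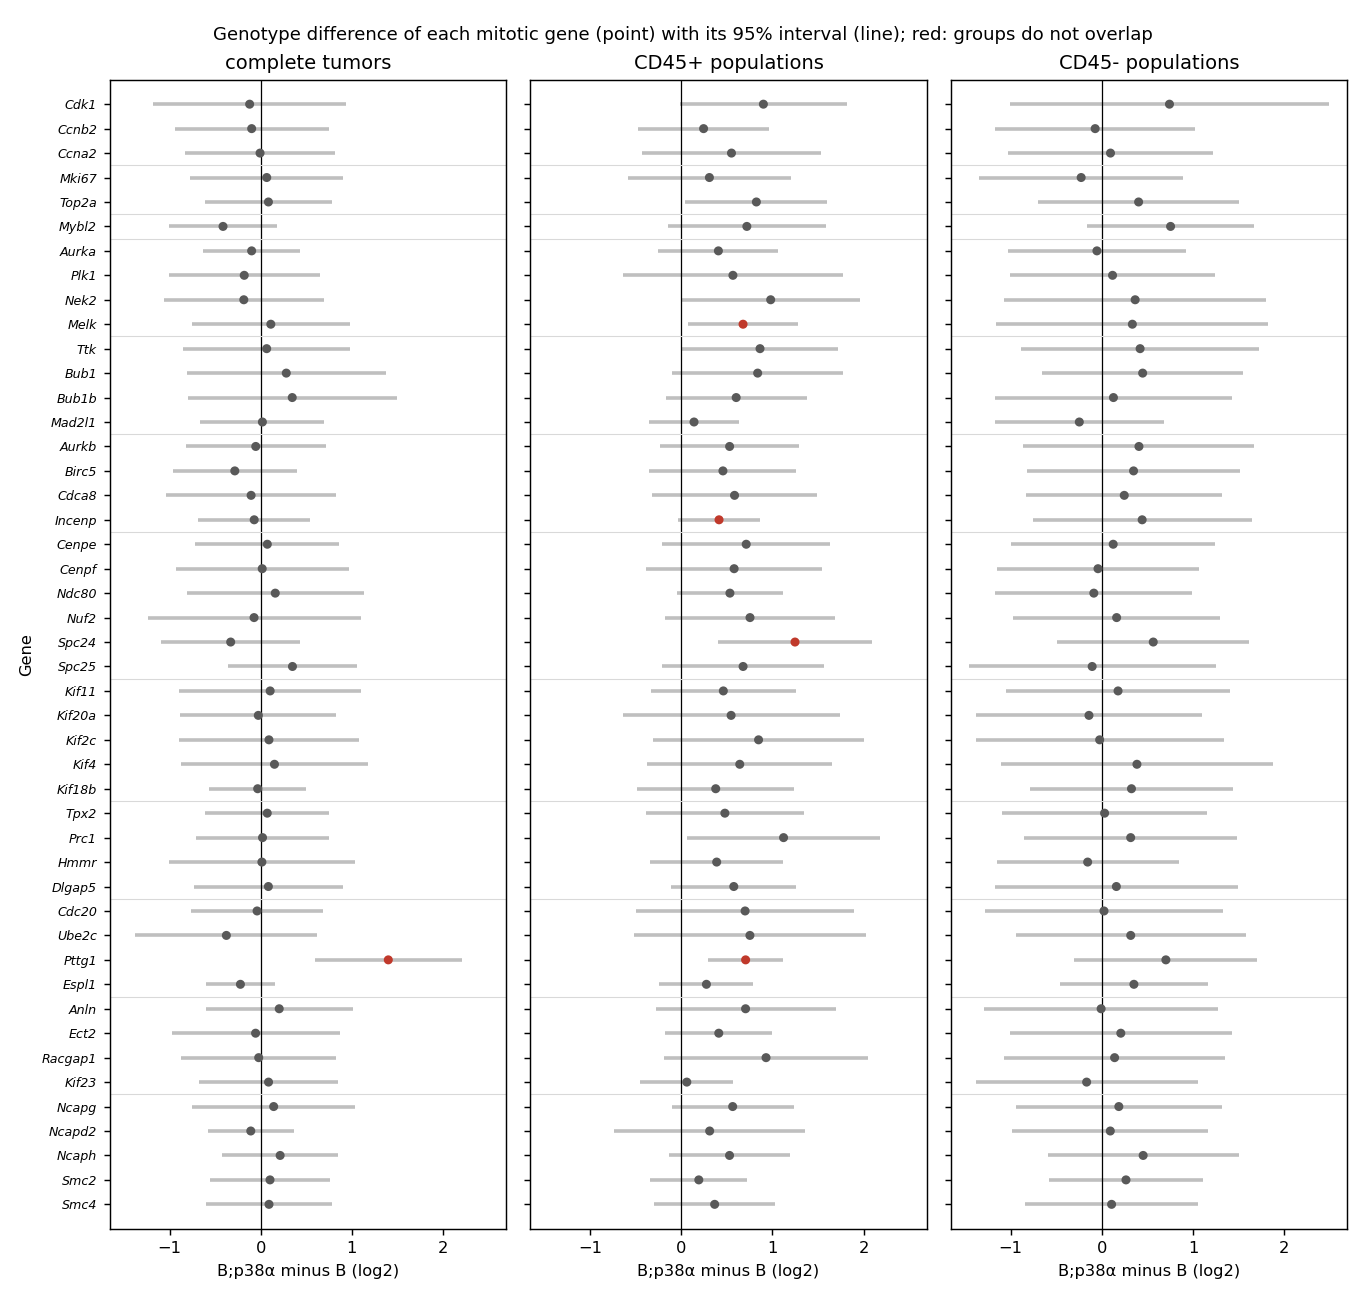
Genotype difference (B;p38α minus B, log2; points) with its 95% interval from the limma fit (lines) for each of the 46 members in complete tumors, CD45+ and CD45- populations, where red points mark genes whose groups did not overlap. All 46 points lie above 0 in CD45+ populations, and Pttg1 stands apart in complete tumors at 1.40.

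In CD45+ populations all 46 members had a higher mean in B;p38α than in B, against 50.4% of all genes, and none passed the test. At a limma adjusted p under 0.05, the counts were 0 members and 0% of all genes. At an unadjusted p under 0.05, 6 members were counted (13%), all higher. Of all genes, 5.69% were higher at that cutoff and 10.8% differed in either direction. With limma's array weights 41 members passed as higher, where 13.8% of all genes did, and 1 B array then carried most of its group's weight. Without weights the median difference was 0.57 over the members, from 0.06 for Kif23 to 1.25 for Spc24, and 0.00 over all genes. It was 0.32 without B CD45+ replicate 2, one of the arrays of narrow range, and 0.87 without B CD45+ replicate 1, with 46 members above 0 in both cases. The 46 directions are not independent, since the members move together within groups.

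Spc24, which anchors the NDC80 complex at the kinetochore, read 6.04, 5.30 and 5.39 in B and 7.25, 7.16 and 6.07 in B;p38α CD45+ populations. Every B;p38α sample was above every B sample, replicate 3 only just, and the difference was 1.25 (SE 0.36, 95% interval 0.41 to 2.09, limma adjusted p = 0.420). Groups did not overlap for 4 members in all (8.70%; Spc24, Pttg1, Melk and Incenp), and higher groups without overlap were as frequent among all genes (9.16%). Prc1, which bundles microtubules of the spindle midzone, read 8.27, 6.53 and 7.02 in B and 8.66, 8.65 and 7.88 in B;p38α, a difference of 1.12 (SE 0.45, limma adjusted p = 0.453). Here 2 of 3 B;p38α samples lay above the highest B sample. Nek2, a centrosome kinase, read 7.14, 5.77 and 5.60 in B and 7.35, 7.38 and 6.73 in B;p38α (0.98, SE 0.42, limma adjusted p = 0.465). Racgap1, a subunit of centralspindlin at the midzone, read 9.37, 7.67 and 7.89 in B and 9.50, 9.57 and 8.65 in B;p38α (0.93, SE 0.48, limma adjusted p = 0.488). In both, B replicate 1 lay above B;p38α replicate 3, so the groups overlapped.

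Cdk1 read 7.81, 6.36 and 7.13 in B and 8.20, 8.31 and 7.50 in B;p38α CD45+ populations (0.90, SE 0.39, limma adjusted p = 0.467). Top2a read 8.53, 7.43 and 7.83 against 9.14, 8.82 and 8.30 (0.82, SE 0.33, limma adjusted p = 0.457). Bub1 read 7.44, 5.93 and 6.35 against 7.76, 7.47 and 7.0001 (0.84, SE 0.40, limma adjusted p = 0.477). In each of these genes B replicate 1 and B;p38α replicate 3 overlapped, the highest B with the lowest B;p38α sample. Plk1 read 9.005, 7.50 and 7.75 against 9.17, 9.09 and 7.70 (0.57, SE 0.51), Aurkb 8.50, 7.74 and 7.59 against 8.67, 8.82 and 7.93 (0.53, SE 0.33). Mki67 read 10.78, 9.94 and 10.05 against 11.01, 10.92 and 9.77 (0.31, SE 0.38), and Ccnb2 9.70, 8.62 and 8.68 against 9.27, 9.41 and 9.05 (0.24, SE 0.31). For Ccnb2 the highest value of all 6 was that of B replicate 1. Spindle checkpoint, kinetochore and anaphase genes had role medians of 0.72, 0.69 and 0.70, and the 5 condensin subunits, which compact chromosomes, 0.37.

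How far these differences held depended on how the arrays were weighted. With limma's array weights, 41 of 46 members passed as higher, where 13.8% of all genes did (2690 genes; 27.2% in either direction), with a median of 0.90 and, for Spc24, a difference of 1.68 (limma adjusted p = 0.00757). Those weights put 6.39 on B replicate 3 and 0.33 and 0.50 on B replicates 1 and 2, so that 1 sample stood for most of the B group, and 0.33 on B;p38α replicate 3. B;p38α replicates 1 and 2 correlated at 0.991 over all genes, with 1 identical value. This was the highest correlation of any pair within a group, and the others lay between 0.909 and 0.979. The labels do not say whether these 2 samples came from separate animals. The mean of 3 Y-linked genes, taken as a covariate, read 8.67, 4.30 and 5.36 in B and 3.23, 3.01 and 2.75 in B;p38α. With it the median was 1.31 and 3 members passed: Prc1 (2.39), Bub1 (1.95) and the condensin subunit Ncaph (1.30). Every B value of this covariate lay above every B;p38α value, so it cannot be told apart from genotype in this fit. Its highest value was that of B replicate 1, the B sample with the highest mitotic genes. In complete tumors the Y-linked mean read 8.93, 3.72, 3.39, 9.29 and 2.76 in B and 2.99, 3.85 and 3.35 in B;p38α, so the high values lay in B only. In CD45- populations it read 6.79, 8.60 and 2.79 in B and 3.32, 8.81 and 3.30 in B;p38α. The labels do not state the animals' sex, and its part in the genotype differences was not tested.

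The marker lists shifted in the same samples. The leukocyte mean was 11.40, 11.28 and 11.34 in B and 10.82, 10.82 and 11.45 in B;p38α CD45+ populations, the endothelial mean 10.39, 10.29 and 10.48 against 9.35, 9.28 and 10.32, and the T cell mean 6.91, 7.78 and 7.62 against 6.76, 6.74 and 7.58. In these 3 lists B;p38α replicate 3, with the lowest mitotic genes of its group, lay nearer to B than replicates 1 and 2 did. Other lists differed from that: its macrophage mean was 12.18, above all B samples (11.84, 11.86 and 11.88), with 11.35 and 11.38 in replicates 1 and 2, and its B cell mean was 7.56, against 6.57, 6.73 and 6.75 in B and 6.19 and 5.88 in replicates 1 and 2. The part of cell composition in the difference of the mitotic genes was not tested.

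In CD45- populations 34 of 46 members had a higher mean in B;p38α, against 55.8% of all genes, with a median difference of 0.17 against 0.05. None passed the test, where 2 of 19504 genes (0.0103%) did, and at an unadjusted p under 0.05 the count of members was 0, against 6.76% of all genes. Mybl2 had the widest difference, 0.75 (SE 0.39, limma adjusted p = 0.675), with values of 5.46, 6.86 and 6.19 in B and 7.32, 6.76 and 6.68 in B;p38α. Its groups overlapped through B replicate 2, the sample with the highest mitotic genes of the B group. Spc24 read 5.54, 6.86 and 6.02 in B and 7.38, 6.09 and 6.63 in B;p38α CD45- populations (0.56, SE 0.45, limma adjusted p = 0.694), and its groups overlapped. Markers of immune cells differed between the same samples. All 5 leukocyte markers had a lower mean in B;p38α CD45- populations (median difference -1.83) and so had all 6 macrophage markers (median -2.02), with 4 of each list lower at an unadjusted p under 0.05 and 0 passing the adjusted test of limma. The leukocyte mean was 9.48, 9.35 and 9.13 in B and 6.28, 8.26 and 8.52 in B;p38α, and the macrophage mean 10.16, 10.001 and 9.44 against 6.01, 8.12 and 9.41. The 6 pigment genes were lower as well (median -0.80, with 4 at an unadjusted p under 0.05). Their part in the values of the mitotic genes was not tested. The median over members was -0.24 without B;p38α CD45- replicate 1, 0.54 without B CD45- replicate 2, and -0.15 without the 2 arrays of narrow range, with 11 members above 0.

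Cdk1 read 5.88, 8.49 and 7.60 in B and 9.15, 7.22 and 7.83 in B;p38α CD45- populations (0.74, SE 0.74, limma adjusted p = 0.735), with the lowest of its 20 values in B replicate 1, the array of narrowest range. Mki67 read 10.13, 11.12 and 10.20 against 11.23, 9.75 and 9.79 (-0.23, SE 0.48), and Top2a 7.68, 9.07 and 8.05 against 9.43, 8.12 and 8.46 (0.40, SE 0.47). In both, 1 sample per genotype stood well above the other 2 of its group, B replicate 2 and B;p38α replicate 1. Ccnb2 read 8.91, 10.02 and 9.08 against 10.15, 8.68 and 8.96 (-0.07, SE 0.47), and Plk1 8.22, 9.54 and 8.42 against 9.66, 8.37 and 8.50 (0.12, SE 0.48). Bub1 read 6.24, 7.45 and 6.31 against 7.94, 6.69 and 6.71 (0.45, SE 0.47). Aurkb read 7.19, 8.92 and 7.59 against 9.12, 7.73 and 8.08 (0.41, SE 0.54), and the same 2 samples were again the highest of their groups. The 4 genes of the chromosomal passenger complex lay between 0.25 and 0.44, and the 5 condensin subunits between 0.09 and 0.45.

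Pttg1 was the member that departed most from the rest. Securin, its product, holds separase inactive until anaphase. It read 9.08, 7.58, 8.77, 7.87 and 9.15 in B complete tumors (8.49 ± 0.72, SD, n = 5) and 9.73, 9.91 and 10.03 in B;p38α (9.89 ± 0.15, n = 3). All 3 B;p38α samples lay above all 5 B samples, the only member without overlap of groups in this compartment, where 1.92% of all genes were higher without overlap. The difference was 1.40 (SE 0.36, 95% interval 0.59 to 2.21, unadjusted p = 0.00311) and did not pass over all genes (limma adjusted p = 0.707). B;p38α replicate 1, in which Mki67, Cdk1 and Plk1 were at or near the lowest of all complete tumors, had 9.73 of Pttg1.

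In CD45+ populations Pttg1 read 8.47, 8.43 and 8.76 in B (8.55 ± 0.18, n = 3) and 9.08, 9.28 and 9.42 in B;p38α (9.26 ± 0.17, n = 3), a difference of 0.71 (SE 0.18, limma adjusted p = 0.412) without overlap of the groups. With array weights this was 0.49 and passed (limma adjusted p = 0.0261). In CD45- populations it read 7.55, 8.74 and 9.26 in B (8.52 ± 0.88, n = 3) and 9.23, 9.31 and 9.11 in B;p38α (9.22 ± 0.10, n = 3), where B replicate 3 overlapped and B replicate 1, the array of narrowest range, was lowest. The difference there was 0.70 (SE 0.43, limma adjusted p = 0.675), and 0.22 without that array. With all 20 arrays in 1 fit that adjusted for compartment, Pttg1 differed by 0.97 (SE 0.22, 95% interval 0.51 to 1.43, unadjusted p = 0.000299), with a limma adjusted p of 0.100, and between 0.0521 and 0.200 under the alternatives. Its level relative to the mean of the other members was 1.40 higher in B;p38α in complete tumors, without overlap, 0.12 in CD45+ and 0.52 in CD45- populations, where the groups overlapped. The interaction of genotype with compartment did not pass for Pttg1, with -0.69 for CD45+ against complete tumors (limma adjusted p = 0.774) and -0.70 for CD45- against complete tumors (limma adjusted p = 0.637).

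**Figure D5:**
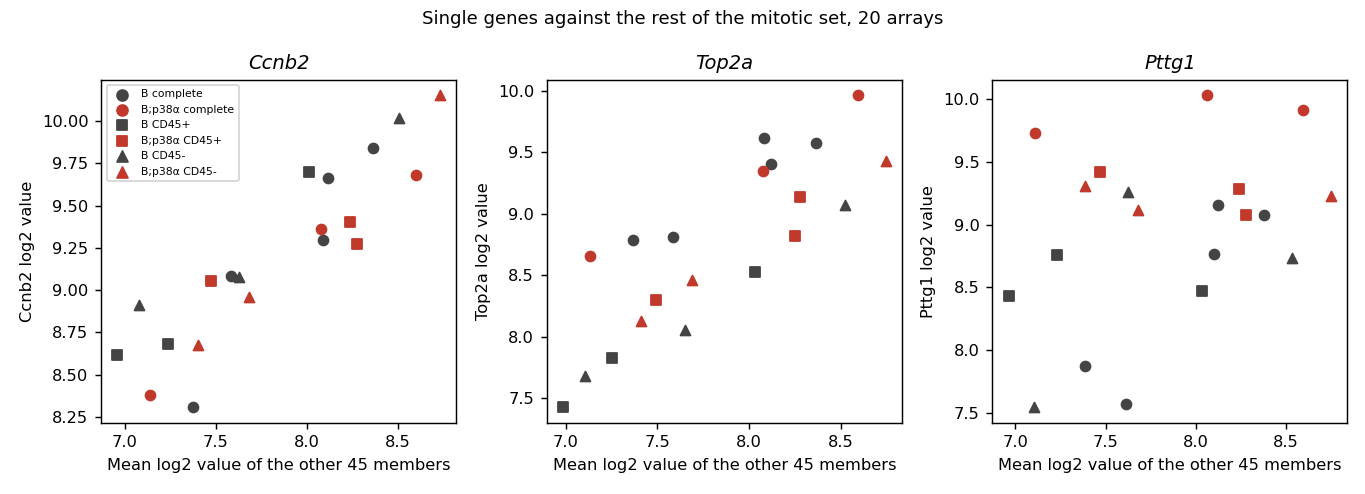
Log2 value of Ccnb2, Top2a and Pttg1 on each of 20 arrays against the mean log2 value of the other 45 members, where red is B;p38α, black is B, and shapes give the compartment. Ccnb2 and Top2a rise with the other members in all groups, and the 3 B;p38α complete tumors lie highest for Pttg1 at any level of the others.

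In that fit over all 20 arrays 44 of 46 members had a difference above 0, against 53.1% of all genes, with a median of 0.24 against 0.02. None passed the test, where 16 genes (0.082%) did, and at an unadjusted p under 0.05 the counts were 1 member, Pttg1, and 15% of all genes. The median was 0.06 without the 2 arrays of narrow range, and 0.13 without B;p38α CD45- replicate 1 to 0.40 without B;p38α complete replicate 1. After Pttg1 the widest differences were those of Bub1 (0.50, SE 0.29, limma adjusted p = 0.417), Cdk1 (0.46, SE 0.36, limma adjusted p = 0.540), Prc1 (0.45, SE 0.28, limma adjusted p = 0.438) and Spc24 (0.43, SE 0.28, limma adjusted p = 0.458). Of the 91 genes in the other cell cycle lists, Hjurp, the chaperone that loads the centromeric histone CENP-A, was the one that passed. It read 8.69 ± 0.42 (SD, n = 5) in B and 10.27 ± 0.15 (n = 3) in B;p38α complete tumors, and differed by 1.54 (SE 0.19, limma adjusted p = 0.000527) over all arrays.

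The other cell cycle lists gave the setting of these differences. In CD45+ populations 33 of 33 further mitotic genes had a difference above 0 (median 0.48), with Hjurp at 1.55 (SE 0.32, limma adjusted p = 0.395) and the spindle pole gene Aspm at 1.05 (SE 0.43, limma adjusted p = 0.458), as had 21 of 23 DNA replication genes (median 0.43). The genes listed for the anaphase-promoting complex (9 of 13, median 0.14) and the MuvB and DREAM genes (5 of 11, median -0.01) lay near 0. In CD45- populations 22 of 23 replication genes had a difference above 0 (median 0.45) and 23 of 33 further mitotic genes (median 0.16). In complete tumors the counts were 9 of 23 (median -0.02) and 22 of 33 (median 0.08). E2f1, a transcription factor of S phase entry, had differences of -0.66 (SE 0.24), 1.02 (SE 0.30) and 0.81 (SE 0.49) in complete, CD45+ and CD45- samples, and none passed (limma adjusted p = 0.733, 0.420 and 0.675).

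Whether a genotype difference differed between compartments was tested directly, and 0 members passed in any of the 3 interaction contrasts, where 0% of all genes passed in each. At an unadjusted p under 0.05 the counts were 0, 2 and 1 members, against 1.95%, 7.22% and 9.69% of all genes. Between CD45+ and CD45- populations 42 of 46 members had a larger difference in CD45+ (45.1% of all genes), with a median of 0.42 against -0.04, and Kif2c, a kinesin that takes microtubules apart, had the widest, 0.87 (SE 0.84, limma adjusted p = 1.00). Kif2c read 8.15, 6.88 and 6.55 in B and 8.61, 8.27 and 7.25 in B;p38α CD45+ populations, and 6.96, 8.69 and 7.69 in B and 8.80, 7.28 and 7.19 in B;p38α CD45- populations. Prc1 (0.81, SE 0.73), Racgap1 (0.79, SE 0.77) and Spc25 (0.78, SE 0.75) came next, each at a limma adjusted p of 1.00. In CD45- populations Racgap1 read 8.42, 9.92 and 8.71 in B and 10.004, 8.56 and 8.90 in B;p38α, and Spc25 6.61, 8.34 and 7.04 in B and 8.18, 6.49 and 6.99 in B;p38α. The median over members was 0.02 without B CD45- replicate 2. Between CD45+ populations and complete tumors 44 of 46 were above 0 (51.6% of all genes) with a median of 0.50 (0.08 without B;p38α complete replicate 1 and 0.87 without its replicate 2), and Spc24 had the widest interaction, 1.58 (SE 0.59, 95% interval 0.33 to 2.82, unadjusted p = 0.0158, limma adjusted p = 0.682). Nek2 (1.17, SE 0.75, limma adjusted p = 0.738), Mybl2 (1.13, SE 0.51, limma adjusted p = 0.687) and Ube2c (1.13, SE 0.80, limma adjusted p = 0.759) followed. Nek2 read 7.48, 6.40, 6.57, 6.26 and 6.93 in B and 5.84, 7.55 and 6.23 in B;p38α complete tumors. Spc24 read 7.44, 6.80, 7.01, 6.30 and 7.31 in B and 5.87, 7.30 and 6.75 in B;p38α complete tumors. In CD45+ populations Mybl2 read 6.52, 5.20 and 6.35 in B and 6.82, 7.05 and 6.37 in B;p38α, and Ube2c 8.76, 6.69 and 7.30 in B and 8.58, 8.77 and 7.66 in B;p38α. Between CD45- populations and complete tumors 33 of 46 were above 0 (54.9% of all genes) with a median of 0.16, and this sign rested on 1 sample, with -0.35 without B;p38α complete replicate 1 and 0.55 without B CD45- replicate 2. Mybl2 had the widest, 1.17 (SE 0.51, unadjusted p = 0.0351, limma adjusted p = 0.498), followed by Spc24 (0.89, SE 0.59, limma adjusted p = 0.596), Cdk1 (0.86, SE 0.87, limma adjusted p = 0.720) and Pttg1. These contrasts share samples, so their values are set side by side.

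Mitotic genes were read at similar values in both sorted populations, with wide intervals. In CD45+ minus CD45-, 0 of 46 members passed the test, whereas 2372 genes (12.2%) did, and at an unadjusted p under 0.05 the counts were 0 members and 24.3% of all genes. The median difference was -0.15 over the members and -0.08 over all genes, with 34 members below 0 (61.4% of all genes), and the members' median was 0.06 without B CD45- replicate 2. Prc1 had the widest difference, -0.64 (SE 0.37, 95% interval -1.44 to 0.17, limma adjusted p = 0.336), followed by the kinesin Kif20a with -0.49 (SE 0.40, limma adjusted p = 0.528), Plk1 with -0.42 (SE 0.39, limma adjusted p = 0.593) and the kinetochore gene Nuf2 with -0.38 (SE 0.34, limma adjusted p = 0.576). In CD45- populations Prc1 read 7.57, 9.20 and 8.17 in B and 9.38, 8.16 and 8.35 in B;p38α. Kif20a read 8.44, 6.69 and 7.28 in B and 8.52, 8.32 and 7.20 in B;p38α CD45+ populations, and 7.62, 9.18 and 8.12 in B and 9.05, 7.49 and 7.96 in B;p38α CD45- populations. Nuf2 read 8.22, 6.79 and 7.38 in B and 8.56, 8.43 and 7.65 in B;p38α CD45+ populations, and 7.32, 8.85 and 8.25 in B and 9.03, 7.72 and 8.16 in B;p38α CD45- populations. The populations overlapped in all 4 genes. Incenp, the scaffold of the chromosomal passenger complex, lay on the other side with 0.33. The G1 cyclin Ccnd2 was the gene of the other cell cycle lists that passed, lower in CD45+ by a difference of -0.69 (limma adjusted p = 0.0268).

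Against complete tumors, 2 members fell in CD45+ populations and 0 rose, where 25.8% of all genes changed and 12.9% fell. Prc1 was lower by a difference of -1.05 (SE 0.33, 95% interval -1.73 to -0.36, limma adjusted p = 0.0244) and Top2a by -0.94 (SE 0.29, 95% interval -1.54 to -0.34, limma adjusted p = 0.0213), averaged over both genotypes. The 8 complete tumors read 8.09 to 9.38 for Prc1 and the 6 CD45+ samples 6.53 to 8.66, and for Top2a 8.66 to 9.96 and 7.43 to 9.14, so both overlapped. Spc25 read 7.41, 6.08 and 6.36 in B and 7.59, 7.49 and 6.81 in B;p38α CD45+ populations, a difference from complete tumors of -0.82 (limma adjusted p = 0.0764). Ttk, the kinase that starts checkpoint signaling, read 8.28, 6.99, 7.73, 7.04 and 7.48 in B and 6.62, 8.47 and 7.62 in B;p38α complete tumors, and 7.05, 5.97 and 5.97 in B and 7.47, 7.46 and 6.66 in B;p38α CD45+ populations (-0.77, limma adjusted p = 0.121). Neither passed, and the median over members was -0.20 against 0.00 over all genes, with 32 below 0 (50.4% of all genes). That median was -0.03 without B;p38α complete replicate 2 and -0.37 without its replicate 1. Plk1 stood on the other side with 0.45 (SE 0.35, limma adjusted p = 0.386).

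Both calls rested on single samples. Top2a did not pass without B;p38α complete replicate 2 (limma adjusted p = 0.0678), B CD45+ replicate 2 (0.0630) or B;p38α CD45+ replicate 3 (0.0627). Prc1 did not pass without these (0.0682, 0.0762 and 0.0705), nor without B;p38α complete replicate 3 (0.0622) or B CD45+ replicate 3 (0.0585). Without B;p38α complete replicate 1, 6 members passed, among them Ttk, Spc25, Ncapg and Smc2.

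In CD45- populations 0 members passed against complete tumors, where 2479 genes (12.7%) did, and the median difference was -0.07 against 0.04 over all genes (0.06 without B;p38α complete replicate 2). At an unadjusted p under 0.05 the counts were 3 members (Plk1, Top2a and Smc2) and 28.8% of all genes. Plk1 had a difference of 0.87 (SE 0.35, 95% interval 0.13 to 1.61, limma adjusted p = 0.112) and Top2a of -0.81 (SE 0.29, 95% interval -1.41 to -0.21, limma adjusted p = 0.0691), on opposite sides of 0 although both followed the rest of the set within groups. The condensin subunit Ncapg read 8.18, 6.86, 7.94, 7.36 and 7.65 in B and 6.77, 8.56 and 7.90 in B;p38α complete tumors, and 6.57, 7.42 and 6.88 in B and 8.10, 6.26 and 7.07 in B;p38α CD45- populations (-0.62, SE 0.31, limma adjusted p = 0.203). Cdk1, with the values given above, differed by -0.59 (SE 0.44, limma adjusted p = 0.393), and samples of both kinds overlapped in all 4 genes. Sorted samples were dissociated and complete tumors were not, so dissociation and cell population cannot be told apart in these contrasts. The 4 skeletal muscle markers had median differences of -4.09 in CD45- and -4.17 in CD45+ samples against complete tumors, and the part of such tissue in the values of Top2a and Prc1 was not tested. The comparisons with complete tumors share those samples.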

How the data were processed

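RMA produced the deposited log2 expression values, per the submitters' processing notes (no version given), so the authors had background-corrected, normalized and summarized the probes. The set of arrays normalized jointly is unknown here. The table had 21244 rows, of which 19570 carried 1 gene symbol, 0 several and 1674 none, with 0 missing values. All 19570 symbols were matched to RefSeq (GRCm38.p6) through the entrez number. For genes with several rows the one of highest mean was taken (66 rows dropped), leaving 19504 genes with no filter on dim ones. Precision is limited by the number of arrays, 3 to 5 per group.

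Sample labels gave the groups. All tests were two-sided and used limma 3.58.1 (lmFit, eBayes) in R 4.3.3, and p-values were adjusted by Benjamini-Hochberg across the 19504 genes, with calls under 0.05. Genotypes were compared within each compartment, sorted populations over 12 arrays, and contrasts with complete tumors over 20. A difference is B;p38α minus B, CD45+ minus CD45-, or sorted minus complete, and SE comes from the fit. Members and lists (6 cell cycle lists, 91 of 94 entries measured; 11 marker lists, 48 of 53) were chosen with earlier results of these data known. Per-sample values are given for 8 genes fixed by rule (Mki67, Top2a, Cdk1, Ccnb2, Plk1, Bub1, Aurkb and Pttg1) and, in each comparison, for the 4 members of largest absolute difference. Motif letters were counted in RefSeq promoter windows of 300 bases, the first listed per gene. Chosen after seeing the data were the motif count within 50 bases of the start, levels relative to the other members, and leaving out the 2 narrow arrays. Scripts were tested on simulated data. Plots used matplotlib 3.10.9 (Python 3.11.15).

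The following alternatives were tried: 1 fit of all 6 groups, a block for replicate number, removal of genes below the 30th percentile of mean level, a further quantile normalization, array weights, trended robust variance, all rows or averaged rows per gene, a covariate from Y-linked genes, and omission of each array.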

Additional observations from a re-analysis of the deposited data

Results flagged for a closer look

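Hmmr, the gene of a spindle assembly factor, read 6.06 in B complete replicate 2, and the nearest of the other B complete tumors read 7.27, a gap wide enough to mark the sample as far from the others. It was 1 of 47 groups so examined, and chance marks about 1 group in 20.

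Spc24 had genotype differences of opposite sign in complete tumors and sorted populations when its level was taken relative to the mean of the other 45 members. In complete tumors this relative level was lower in B;p38α by a difference of -0.37, with every B;p38α sample below every B sample. In CD45+ and CD45- populations it was higher in B;p38α, by 0.67 and 0.38, with every B;p38α sample above every B sample. Spc24 was picked from 46 members for this pattern. Groups without overlap were not rare on this relative scale. In CD45- populations Mki67 and Ccnb2 were lower without overlap, and Top2a and Mybl2 higher. The difference between compartments in the relative level was not tested. The interaction on the plain log2 level of Spc24 was 1.58 for CD45+ against complete tumors (SE 0.59, limma adjusted p = 0.682) and 0.89 for CD45- against complete tumors (SE 0.59, limma adjusted p = 0.596).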

How the results depend on the processing

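Counts and medians stayed within their bounds in 662 alternative values and moved in 52. A count stayed if it was equal or within a factor of 1.5, and a median if it shifted by less than 0.63. That shift is wider than the median member difference of any main fit, so a median could change sign and still count as staying. Among values of single genes 2496 kept their call, 11 lost and 26 gained one, and 0 reversed. A change of sign counted as reversed only where the main or the alternative value passed the test. In complete tumors the number of genes called was 27 with the replicate block, and 0 to 49 when each array was left out (49 without B complete replicate 4). In CD45+ populations it was 2 with all groups in a single fit, 7 without dim genes, 5303 with array weights (41 members), 5 with a trended variance, 250 with the Y-linked covariate (3 members, median member difference 1.31), and 0 to 30 when each array was left out (30 without B;p38α CD45+ replicate 3). In CD45- populations it was 0 in a single fit, 4 with array weights, 1 with the Y-linked covariate, and 0 to 4 when each array was left out. With array weights it was 4275 for CD45+ minus CD45-, 761 for the interaction of genotype with CD45+ against complete (1 member), 134 over all 20 arrays and 7769 for CD45+ minus complete (7 members), and the median member interaction of the sorted populations was 1.19. For CD45- minus complete it was 1484 with the replicate block, and 1 member passed without dim genes or with array weights. When each array was left out, CD45- minus complete gave 1459 to 2990 genes and 0 to 2 members. In the same way, CD45+ minus complete gave 4169 to 5861 genes and 0 to 6 members. The interactions gave 0 to 1 (sorted), 0 to 16 (CD45+ against complete) and 0 to 37 genes (CD45- against complete). The fit of all 20 arrays gave 11 to 86 genes (86 without B;p38α CD45+ replicate 3, 38 without B;p38α complete replicate 3). Without B complete replicate 4 the interactions of CD45+ and CD45- against complete gave the 16 and 37 genes. The cause of these changes was not tested.

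The replicate block left 0 members called in CD45+ minus complete (Top2a limma adjusted p = 0.0685, Prc1 0.0645) and gave 19 genes for the interaction with CD45- against complete. Same-numbered samples of the genotypes deviated together with r between -0.22 and 0.22, and of the sorted populations between -0.57 and 0.36. With so few samples per group, these correlations cannot decide whether same-numbered samples share a tumor. The Y-linked mean of same-numbered CD45+ and CD45- samples read 8.67 and 6.79, 4.30 and 8.60, and 5.36 and 2.79 in B. In B;p38α it read 3.23 and 3.32, 3.01 and 8.81, and 2.75 and 3.30. Replicate 2 differed widely in both genotypes, so same-numbered sorted samples cannot be taken to share an animal. The block is given as a check only. Without the 2 arrays of narrow range 1 member passed in CD45+ minus complete, and the median interaction with CD45- against complete was -0.16. Groups of 3 to 5 samples limit what these arrays can show.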
